A study of Mus musculus with 79 samples.

Results

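The data described here are the levels of 10 dendritic cell genes (Ccr7, Flt3, Zbtb46, Batf3, Clec9a, Xcr1, Cd209a, Fscn1, Ccl22 and Ccl17), of 23361 genes counted, in RNA from sorted mouse Schwann cells, sorted macrophages and distal nerve stump. The genes were chosen by their level in the Schwann cell libraries, as dendritic genes abundant there, so their excess there over macrophages is a description and was not tested. S100β-eGFP mice, in which a human S100β promoter drives green fluorescent protein (GFP), had the common peroneal nerve sutured to the tibial stump either immediately or after the tibial nerve had been cut and left for 8 weeks (delayed repair). Immediate repair animals had a sham incision 8 weeks earlier. At 5 or 14 days after repair, 1000 cells of each type were sorted from the tissue bridge that formed inside a silicone conduit, and the tibial stump was taken at day 5 only. Bridges were not pooled, so each library is 1 animal, and animal age is not given in the sources used here.

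At day 5 there were 9 Schwann cell libraries after delayed repair and 7 after immediate repair, and at day 14 there were 7 and 8. Macrophages gave 9, 8, 7 and 8 libraries in the same order, and the stump gave 9 and 7. The 79 libraries came from 32 animals, 16 of each sex, and 31 animals gave both sorted cell types. Library totals ran from 11614940 to 30796823 counts in Schwann cells, from 14928745 to 28499407 in macrophages and from 3898778 to 9212709 in the stump. Levels are CPM, the counts of a gene scaled to a common library total. Sorted cell RNA was amplified as cDNA, whereas stump RNA was depleted of ribosomal RNA, so levels were not tested between the stump and the sorted cells.

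Dendritic cells take up antigen in tissues and carry it through lymph vessels to lymph nodes, where they present it to T cells. Conventional dendritic cells depend on the growth factor receptor FLT3 and express the transcription factor ZBTB46. The cross-presenting branch (cDC1) is marked by BATF3, CLEC9A and XCR1, and CD209A marks cells of the other branch (cDC2) and of monocyte origin. When a dendritic cell matures it induces CCR7, the receptor that guides it toward the chemokines CCL19 and CCL21, bundles actin with fascin (FSCN1), and secretes CCL17 and CCL22, which attract T cells through CCR4. In nerve, Schwann cells are the glia that wrap axons, SOX10 is the transcription factor that defines their lineage, and S100b encodes a calcium-binding protein abundant in them.

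The sort defined Schwann cells as live, GFP-bright cells without F4/80, CD14, CD16/32 or CD11b and without the lineage markers of lymphocytes, granulocytes, fibroblasts, endothelium and erythroid cells. No antibody named for the gate was there to mark dendritic cells. Sox10 was at 45.4 ± 48.2 CPM (SD, n = 16) at day 5 and 112 ± 51.2 CPM (n = 15) at day 14 in these libraries, and it was at 0 in 28 of the 32 macrophage libraries. Ccr7 alone stood at 7591 ± 1468 CPM at day 5 in the Schwann cell libraries. All 12 Schwann cell markers listed had a mean of at least 5 CPM, with a summed level of 164 to 1366 CPM (median 370.3) at day 5 and 509 to 3769 CPM (median 927) at day 14, whereas the 10 dendritic genes summed to 8510 to 20613 CPM and 3877 to 15274 CPM. In bulk RNA such as this, fewer cells of a type and less RNA per cell cannot be told apart. Other cells' genes were also present. The macrophage list summed to 297 to 13619 CPM (median 2742) at day 5 and 957 to 7790 CPM (median 1963) at day 14, and the fibroblast list to 14.7 to 8898 CPM (median 1234) and 892 to 19894 CPM (median 6309), both with medians above that of the Schwann cell markers. A mean of at least 5 CPM was also reached by 4 of 5 neutrophil, 3 of 5 mural, 2 of 6 T cell and 2 of 6 endothelial genes. It was reached by 1 gene each of the NK cell, mast cell and skeletal muscle lists. Of 6 B cell genes 2, among them Pax5, and of 3 adipocyte genes 2, Plin1 and Lep, were at 0 in every Schwann cell library.

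The 2 chemokine genes lie close together and differed widely in level, so the sequence just before each is shown. Ccl22 (chromosome 8, 94745590 to 94751699) and Ccl17 (chromosome 8, 94810453 to 94812036) both lie on the forward strand of GRCm38, with 58753 bases between them. In the Schwann cell libraries at day 5, Ccl22 stood at 530.5 ± 265 CPM per kilobase of exon and Ccl17 at 6.96 ± 7.25. The sequences are from RefSeq (GRCm38.p6), 5′ to 3′ on the forward strand, and the capitals mark matches to a form of the NF-kappaB motif (GGG and CC with 5 bases of any kind between), which here lie on the reverse strand. The first is chr8:94745434-94745589, the part of the RefSeq window that precedes the annotated first exon of Ccl22, and the second is chr8:94810203-94810452.
Ccl22: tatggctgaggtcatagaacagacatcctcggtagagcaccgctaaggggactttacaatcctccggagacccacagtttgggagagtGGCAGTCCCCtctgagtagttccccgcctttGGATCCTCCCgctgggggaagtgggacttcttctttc
Ccl17: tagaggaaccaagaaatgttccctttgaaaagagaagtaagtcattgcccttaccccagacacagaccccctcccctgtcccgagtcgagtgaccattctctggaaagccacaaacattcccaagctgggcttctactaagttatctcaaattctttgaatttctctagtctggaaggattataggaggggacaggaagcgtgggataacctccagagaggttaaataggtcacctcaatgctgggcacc
The Ccl22 stretch holds 2 matches and the Ccl17 stretch none. RefSeq promoter windows were found for 9 of the 10 genes (none for Ccr7), and in the 250 bases before the start the same letters occurred in 3 of 9 (Batf3, Fscn1 and Ccl22), against 45.8% of 32851 windows genome-wide. TGANTCA (AP-1) occurred in 1 of 9, Zbtb46, against 6.75% of windows, and an ETS-IRF composite (GGAA and GAAA with 2 bases between) in 0 of 9, against 2.3%. Both strands were searched, and a match is a description of letters only.

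**Figure D1:**
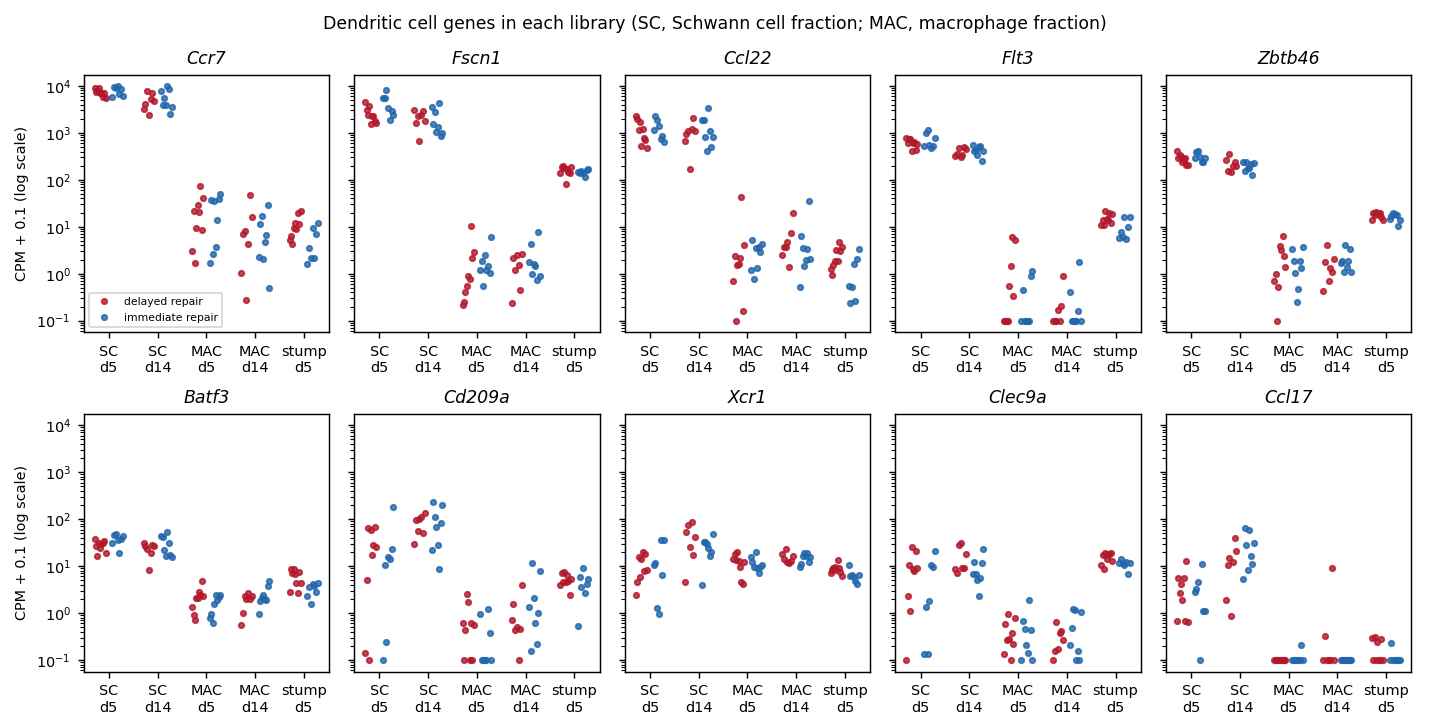
Level of each dendritic cell gene (CPM + 0.1, log axis) in every Schwann cell (SC), macrophage (MAC) and distal stump library by day (d5, d14), with 1 point per library, coloured by repair group. The Ccr7, Fscn1, Ccl22, Flt3 and Zbtb46 points of every Schwann cell library lie above all macrophage points, whereas those of Xcr1 overlap at both days.

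The other members lie apart in the genome (GRCm38). Ccr7 is on the reverse strand of chromosome 11 (99144196 to 99155077) and Zbtb46 on that of chromosome 2 (181387762 to 181459426). Flt3 (147330741 to 147400489, reverse strand) and Fscn1 (142960343 to 142973185, forward strand) are both on chromosome 5. Batf3 is on chromosome 1 (191097847 to 191108945), Clec9a on chromosome 6 (129408862 to 129424763), Xcr1 on chromosome 9 (123852315 to 123862029) and Cd209a on chromosome 8 (3743397 to 3748984). Counts cover whole genes, so no exon or transcript was told apart, and Flt3 overlaps an antisense gene (Gm26597) whose reads can be told apart from its own only where strand was used.

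The 10 genes were far from equal in the Schwann cell libraries. Per kilobase of exon at day 5, Ccr7 came first at 3838 ± 742 CPM per kb (SD, n = 16), followed by Fscn1 at 1095 ± 590.3 and Ccl22 at 530.5 ± 265. These maturation genes were above Flt3 at 106 ± 31.6 and Zbtb46 at 34.6 ± 7.84 CPM per kb, the genes of the conventional lineage. Cd209a at 19.95 ± 28.6 and Batf3 at 19.9 ± 5.91 came next and did not differ beyond their spread. The last 3 were Ccl17 at 6.96 ± 7.25, Xcr1 at 2.78 ± 2.42 and Clec9a at 2.44 ± 2.46 CPM per kb, also within their spread of each other. At day 14 Ccr7 again came first, at 2715 ± 1183 CPM per kb (n = 15), followed by Fscn1 at 689 ± 361 and Ccl22 at 513 ± 342, which did not differ beyond their spread. Flt3 at 66.3 ± 13.99, Cd209a at 56.4 ± 41.0 and Ccl17 at 42.1 ± 38.3 came next and were also within their spread of each other, and Zbtb46 stood at 24.4 ± 6.59. By mean CPM over both days, Ccr7 ranked 8 and Fscn1 22 among the 23361 genes, whereas Clec9a ranked 8251 and Ccl17 7701, so the cDC1 receptors and Ccl17 were not abundant genes of these libraries. Clec9a overlaps Clec1b on the same strand, so reads could be split between them and its level is uncertain, and Cd209a has near-identical relatives in the mouse genome.

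Macrophages of the same animals held little of most of these transcripts. Ccr7 was at 22.8 CPM at day 5 in macrophages, with single libraries from 1.59 to 72.1, and 333 times as high in Schwann cell libraries on the ratio of means. The ratio was 1716 for the actin bundler Fscn1, 274 for Ccl22 and 723 for Flt3, which was at 0 in 9 of 17 macrophage libraries. These ratios rest on low macrophage means in which 1 library, replicate 7 of the delayed group, was the highest for all 3 genes, and without it they were 2349, 579 and 1108. Ccl17 was at 0 in 16 of 17 macrophage libraries at day 5 and 13 of 15 at day 14, so no ratio is given for it. In 6 of the 10 genes at day 5 and 7 at day 14, the lowest Schwann cell library was above the highest macrophage library, which was so for 10.7% of 10087 and 11.9% of 10596 genes. The members were chosen for their level in the Schwann cell libraries, which is 1 side of this contrast, so nothing is read from these counts.

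Xcr1, the receptor for XCL1 on cDC1 cells, was the member that went against the label of the group. It stood at 11.9 CPM in macrophages at day 5 (lowest 4.14, median 12.2, highest 19.9) and at 12.4 CPM in the Schwann cell libraries. The Schwann cell library was the higher of the pair in 7 of 16 animals at day 5 and in 12 of 15 at day 14, when the means were 15.1 CPM in macrophages and 34.1 in Schwann cells. Clec9a and Cd209a were higher in the Schwann cell library of 14 and 13 of 16 animals at day 5 and of all 15 at day 14.

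The first comparison asks whether delay changed these genes in the Schwann cell libraries. At day 5, Ccr7 ran from 5574 to 9152 CPM (median 7112) after delayed repair and from 5677 to 9706 CPM (median 8448) after immediate repair. Fscn1 ran from 1537 to 4444 CPM (median 2275) and from 1839.6 to 7999 CPM (median 3407). Flt3 ran from 416 to 776 CPM (median 621) and from 470.2 to 1124 CPM (median 562). The groups overlapped for each of these genes, with the highest libraries of Fscn1 and Flt3 in the immediate group. None of the 9 members tested passed edgeR's quasi-likelihood test with Benjamini-Hochberg adjustment over 9604 genes (0.0% called, 0 genes). At an unadjusted p below 0.05 there were 505 genes and 1 member, Fscn1, with a log2 difference (delayed over immediate) of -0.77 ± 0.35 (SE) and adjusted p = 0.913, and DESeq2 called 14 genes and 0 members. Ccr7 differed by -0.14 ± 0.20, Flt3 by -0.24 ± 0.25 and Batf3, the cDC1 factor, by -0.46 ± 0.24 on the log2 scale. Ccl17 was under the minimum level there, and an exact permutation test (2-sided) of its log2(CPM + 1) gave p = 0.796.

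At day 14 Ccr7 ran from 2413 to 7810.0 CPM (median 4748) after delayed repair and from 2579 to 9817 CPM (median 4809) after immediate repair. Xcr1 ran from 4.39 to 87.5 CPM (median 41.9) and from 3.91 to 48.9 CPM (median 26.6). Ccl17 ran from 0.780 to 39.1 CPM (median 12.2) and from 5.19 to 64.9 CPM (median 22.4). All 3 pairs of groups overlapped. By the same test 0 of 10 members and 0 of 10226 genes were called (0.0%), 0 members had an unadjusted p below 0.05, and DESeq2 called 3 genes and 0 members. The log2 differences nearest to the threshold were those of Clec9a (0.81 ± 0.47), Xcr1 (0.73 ± 0.52) and Ccl17 (-1.03 ± 0.72). In macrophages, where only Ccr7 and Xcr1 passed the minimum, 0 of 2 were called at day 5 (0.0357% of 8409 genes) and at day 14 (0.0% of 8589), with log2 differences of -0.09 and 0.38 for Ccr7 and of -0.01 and 0.06 for Xcr1.

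The distal stump was compared in the same way at day 5. Flt3 stood at 10.9 to 21.1 CPM (median 14.1) after delayed repair and at 5.49 to 15.9 CPM (median 7.82) after immediate repair. Clec9a, a receptor for dead cells on cDC1, stood at 8.70 to 19.2 CPM (median 17.3) and at 6.62 to 14.3 CPM (median 11.3). Xcr1 stood at 6.01 to 13.1 CPM (median 8.30) and at 4.02 to 10.3 CPM (median 6.10). The groups overlapped, with 3 of 9 delayed libraries above all immediate ones for Flt3, 5 for Clec9a and 1 for Xcr1.

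These 3 genes rose, out of 7 members tested, where 12.8% of 12229 genes were called higher and 26.3% in either direction. The log2 differences were 0.67 ± 0.24 for Flt3 (SE, adjusted p = 0.0497, edgeR), 0.48 ± 0.17 for Clec9a (adjusted p = 0.0473) and 0.51 ± 0.18 for Xcr1 (adjusted p = 0.0462), all just inside the threshold of 0.05. With library totals in place of TMM scaling, or with no minimum level, 0 of the 3 were called. The delayed group held 5 females and 4 males and the immediate group 3 and 4, and with sex in the fit only Xcr1 was called (adjusted p = 0.0371, edgeR). With the replicate number as a block only Flt3 was called (adjusted p = 0.0404, edgeR), although the numbers are not known to pair animals. Leaving out 1 library at a time gave 0 to 3 calls. The count was 0 without replicate 2, 4, 5, 6, 7 or 8 of the delayed group or replicate 3, 6 or 7 of the immediate group, 1 without delayed replicate 3 or immediate replicate 1, 2 or 4, 2 without delayed replicate 9 or immediate replicate 8, and 3 only without delayed replicate 1. Ccr7 stood at 4.25 to 21.8 CPM (median 9.43) and 1.53 to 12.2 CPM (median 3.45), a log2 difference of 1.0 ± 0.43 with adjusted p = 0.0986. Zbtb46 (0.18 ± 0.13), Fscn1 (0.11 ± 0.14) and Cd209a (0.20 ± 0.34) did not pass the test. The low genes Batf3 and Ccl22 were tested alone on log2(CPM + 1) and differed by 0.68 (exact permutation p = 0.0166, 2-sided) and 0.75 (exact permutation p = 0.0386), with 7 of 9 delayed libraries above all immediate ones for Batf3. Ccl17 was at 0 in 11 of 16 stump libraries.

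**Figure D2:**
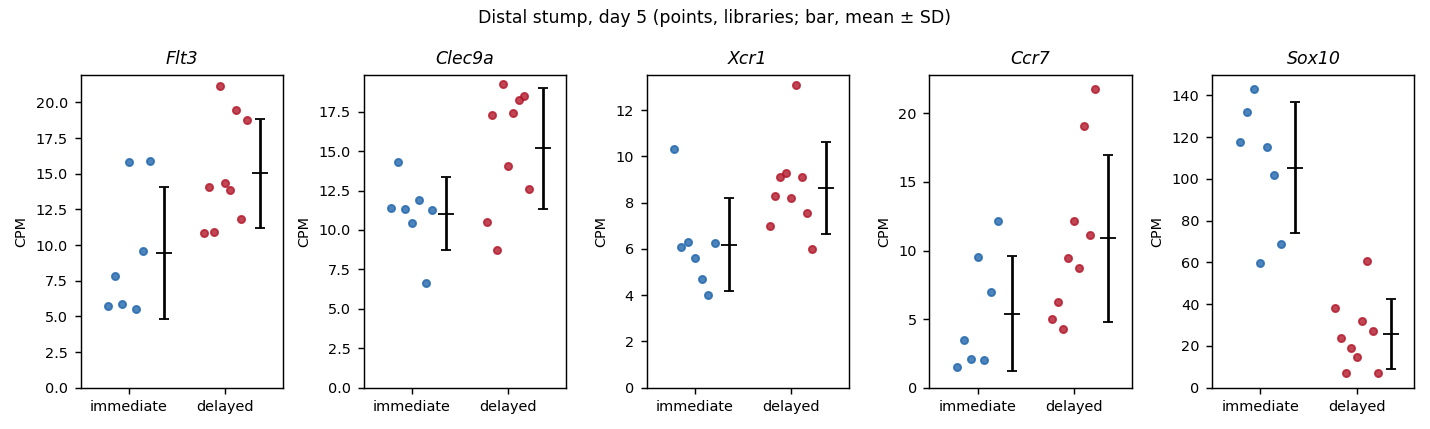
Level (CPM) of Flt3, Clec9a, Xcr1, Ccr7 and Sox10 in each distal stump library at day 5 after immediate and delayed repair, with 1 point per library and bars for the mean ± SD. The dendritic genes average higher after delayed repair (Flt3 15.0 against 9.46 CPM), with overlap, and Sox10 lower (25.6 against 105 CPM), with 1 delayed library just above the lowest immediate one.

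Other dendritic genes of the stump moved with them. Of 20 maturation genes tested, 12 rose, among them Zmynd15 (log2 difference 1.15), Icosl, the ligand of the T cell receptor ICOS (0.77), and Socs2, a damper of cytokine signalling (0.73), with a list median of 0.73 against 0.02 over all genes, of which 12.8% were called higher. Of 8 cDC1 genes 3 rose, among them Wdfy4, which is needed for cross-presentation (0.61), and the lineage factor Irf8 (0.52), and the adhesion gene Cadm1 fell by 0.82. Of 5 cDC2 genes Sirpa (0.77) and Notch2 (0.34) rose, and of 9 shared dendritic genes 4 rose, including the MHC class II activator Ciita (0.87), the adhesion gene Amica1 (0.87) and the endocytic receptor Ly75 (0.96). With library totals the counts of genes called higher were 12, 3, 2 and 4 again, in the same order. With no minimum level they were 13 of 22, 1 of 10, 3 of 8 and 3 of 10, against 5.52% of all genes. Flt3l, which encodes the FLT3 ligand, stood at 4.46 to 10.5 CPM (median 6.67) after delayed repair and at 3.58 to 5.24 CPM (median 4.26) after immediate repair, and rose by 0.66 ± 0.18 with adjusted p = 0.0112 by edgeR. The CCR7 ligands Ccl19 and Ccl21a were at medians of 1.69 and 1.75 CPM after delayed repair and 2.1 and 1.47 CPM after immediate repair.

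Markers of other cells differed in the same libraries. All 11 Schwann cell markers tested fell, with a median of -2.67 (S100b -4.86, Sox10 -2.03), and their sum was 144 to 969 CPM (median 348) after delayed repair against 1481 to 3520 CPM (median 2686), without overlap. Over all genes 12.8% were called higher and 13.5% lower. The macrophage list summed to 4438 to 7376 CPM (median 5980) against 2091 to 7048 CPM (median 3539). In it 3 of 15 genes were called higher, not far from the share over all genes, and 5 of 6 endothelial genes were called higher. Of the other lists, both T cell genes that could be tested were called higher (median 1.03), 3 of 5 mural genes were called higher and 1 lower, and 4 of 5 mast cell genes were called lower and 1 higher (median -1.72). Their part in the rise of the dendritic genes was not tested.

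The second comparison is of day 14 with day 5 in the Schwann cell libraries, which come from different animals and were fitted together over the 4 groups. After immediate repair, Flt3 ran from 470.2 to 1124 CPM (median 562) at day 5 and from 254 to 539 CPM (median 422) at day 14. Zbtb46 ran from 241.69 to 419 CPM (median 294) and from 129 to 241.66 CPM (median 202). Fscn1 ran from 1839.6 to 7999 CPM (median 3407) and from 864 to 4315 CPM (median 1415). The days did not overlap for Zbtb46, by a margin of less than 1 CPM, and overlapped for the other two. Ccl17 went the other way, from 0 to 10.97 CPM (median 2.77) at day 5 to between 5.19 and 64.9 CPM (median 22.4) at day 14, with 6 of 8 day 14 libraries above all those of day 5.

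In that contrast 4 of 10 members were called, against 7.28% of 10923 genes in all, 5.32% lower and 1.96% higher. The 4 include Ccl17, which was under the minimum level at day 5. Flt3 fell by 0.97 ± 0.25 on the log2 scale (SE, adjusted p = 0.0161, edgeR), Zbtb46 fell by 0.90 ± 0.24 (adjusted p = 0.0177) and Fscn1 fell by 1.32 ± 0.41 (adjusted p = 0.0412). Ccl17 rose by 2.94 ± 0.90 (adjusted p = 0.0412). It reached the minimum level of this fit through the day 14 libraries, where it was higher, so nothing is read from this call. Ccr7, with medians of 8448 and 4809 CPM, differed by -0.64 ± 0.30 with adjusted p = 0.216 and was not called. Cd209a (1.40), Xcr1 (0.75), Clec9a (0.48), Batf3 (-0.49) and Ccl22 (-0.13) did not pass either. Without the library of replicate 3 of the immediate day 5 group, 0 members were called, while 426 genes still were. Only Flt3 and Zbtb46 were called without replicate 1 or 2 of the immediate day 5 group or replicate 2, 5 or 8 of the immediate day 14 group. With those 2 groups fitted alone only Zbtb46 was called, and Flt3 had adjusted p = 0.0642, Fscn1 0.110 and Ccl17 0.0707 (edgeR). With no minimum level Flt3 and Zbtb46 were called.

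After delayed repair only Flt3 was called in the main fit, against 6.73% of genes in all and 3.71% lower. With DESeq2, library totals, sex in the fit or those 2 groups alone, 2 members were called. Flt3 ran from 416 to 776 CPM (median 621) at day 5 and from 299 to 494 CPM (median 355) at day 14. It fell by 0.88 ± 0.25 on the log2 scale (adjusted p = 0.0294, edgeR), with overlap. Xcr1 ran from 2.37 to 19.7 CPM (median 8.30) and from 4.39 to 87.5 CPM (median 41.9), with 5 of 7 day 14 libraries above all those of day 5, a log2 difference of 1.86 ± 0.59 with adjusted p = 0.0532. Ccr7 differed by -0.78 ± 0.30 (adjusted p = 0.115), Zbtb46 by -0.57 ± 0.23 (adjusted p = 0.140), Ccl17 by 1.8 ± 0.81 (adjusted p = 0.178) and Fscn1 by -0.54. Leaving out 1 library at a time gave 0 to 3 members. The count was 0 without replicate 1, 3 or 4 of the delayed day 5 group or replicate 2, 4 or 6 of the delayed day 14 group, and without replicate 3 of the latter Ccr7, Flt3 and Zbtb46 were all called. Flt3 and Xcr1 were both called without replicate 6 of the delayed day 5 group, replicate 7 of the delayed day 14 group, replicate 3, 4 or 5 of the immediate day 5 group or replicate 1 of the immediate day 14 group. The difference between the day effects of the 2 repair groups was called for 0 of 10 members and 0 of 10923 genes (0.0%) by edgeR, with 0 members at an unadjusted p below 0.05, and DESeq2 called 9 genes and 0 members.

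Part of the maturation list fell. After immediate repair 8 of 22 fell, against 5.32% of all genes, with a list median of -0.66, including the checkpoint ligand Cd274 (-1.52), Icosl (-1.06) and Zmynd15 (-0.99), and after delayed repair 6 of 22 fell, against 3.71%, with a median of -0.65. The other 14 and 16 did not pass the test. In the other lists the counts of calls were small, against 7.28% and 6.73% of all genes called. Of 10 cDC1 genes 1 was called after immediate repair and 2 after delayed repair. The factor Irf8 fell by 1.26 and 1.13, and Cadm1 rose by 1.32 after delayed repair and stood at 1.15 after immediate repair, where it was not called (adjusted p = 0.0740, edgeR). Of 10 shared genes 1 was called in both, Nr4a3, a nuclear receptor induced in activated dendritic cells, which fell by 1.84 and 1.22. Of 8 cDC2 genes 0 were called in either group. The repair groups share no libraries, but both contrasts share 1 fit.

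**Figure D3:**
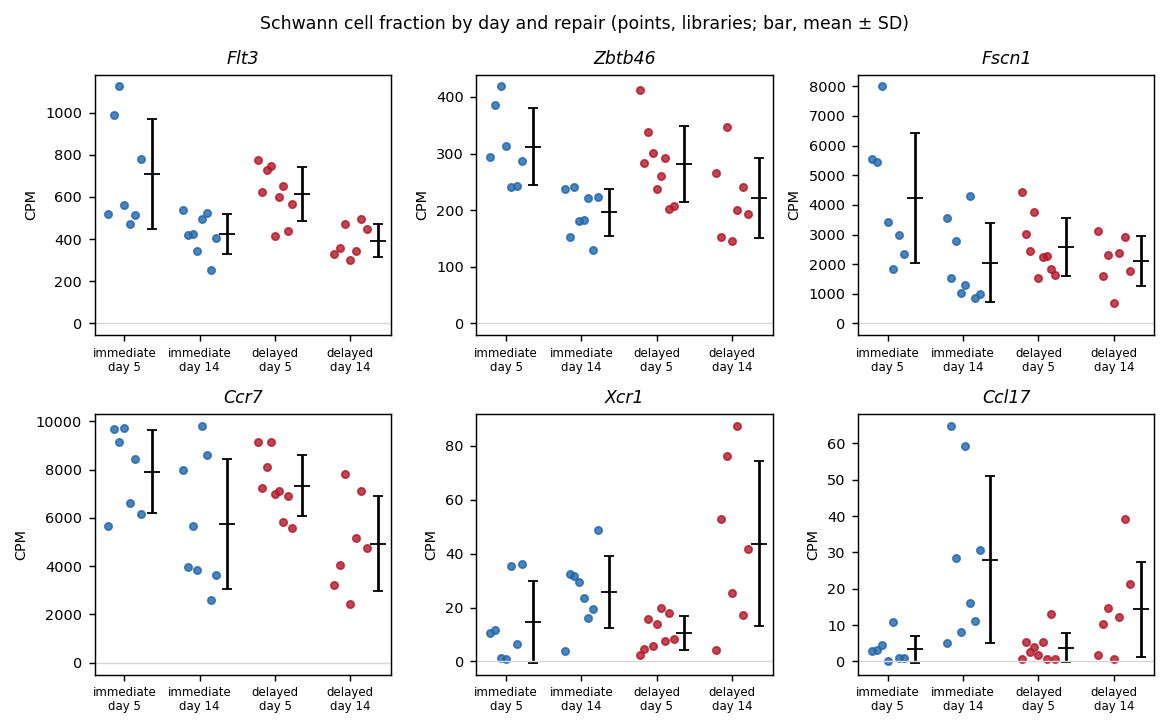
Level (CPM) of Flt3, Zbtb46, Fscn1, Ccr7, Xcr1 and Ccl17 in the Schwann cell libraries by repair group and day, with 1 point per library and bars for the mean ± SD. After immediate repair Flt3 averaged 708 CPM at day 5 and 425 at day 14, and Ccl17 3.34 and 28.0 CPM.

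The direction of calls over all genes in these contrasts depended on the scaling, and Schwann cell markers moved with the delayed contrast. After immediate repair 214 genes were higher and 581 lower at day 14, and 387 and 342 with library totals in place of TMM, which also moved the median over all genes to 0.23. After delayed repair the counts were 330 and 405, and 624 and 239 with library totals, where the median was 0.25. Of 12 Schwann cell markers 0 were called after immediate repair and 7 rose after delayed repair, with a list median of 2.66 (S100b 3.02). The median sum of the fibroblast list went from 1234 CPM at day 5 to 6309 CPM at day 14, and that of the macrophage list from 2742 to 1963 CPM. CPM divides by a total that holds all of these, and their part in the fall of the dendritic genes was not tested.

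In macrophages the day contrasts called 0 of 3 members in both repair groups, against 11.8% of genes after immediate repair and 9.0% after delayed repair, and their difference called 0 of 3 and 0.0223% of genes. The split over all genes was 478 higher and 581 lower after immediate repair and 1293 and 279 with library totals, and 401 and 404 after delayed repair and 467 and 256 with library totals. Ccr7 averaged 22.8 CPM at day 5 and 10.3 CPM at day 14 there, and Ccl22 4.50 and 6.39 CPM, with single libraries up to 42.3 and 34.9 CPM.

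Both sexes are in each group, and females and males were also compared, within a day in a comparison added after the values had been seen. Over both days together, as first planned with repair and day in the fit, 0 of 10 members were called (0.0732%, 8 genes) by edgeR. DESeq2 called 34 genes and 0 members. By edgeR 3 members had an unadjusted p below 0.05, a looser threshold than that of the share given. At day 5, Ccl22 ran from 476 to 1219.5 CPM (median 719) in 8 females and from 1162 to 2309 CPM (median 1791) in 8 males. Fscn1 ran from 1537 to 2980.1 CPM (median 2046) in females and from 2455 to 7999 CPM (median 4103) in males. For Ccl22 a single female was above the lowest male. Within immediate repair the 3 females (635 to 850.4 CPM) were all below the 4 males (1171 to 2233 CPM), and within delayed repair the 5 females ran from 476 to 1219.5 CPM and the 4 males from 1162 to 2309 CPM.

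The log2 difference of Ccl22 (female over male) was -1.44 ± 0.21 (adjusted p = 0.00189, edgeR with repair in the fit), and Fscn1 differed by -1.24 ± 0.21 (adjusted p = 0.00319). Zbtb46 ran from 202 to 292 CPM (median 242) in females and from 284 to 419 CPM (median 326) in males, a difference of -0.69 ± 0.14 (adjusted p = 0.00879). Ccr7 ran from 5574 to 8448 CPM (median 6743) and from 5677 to 9706 CPM (median 9146), a difference of -0.56 ± 0.14 (adjusted p = 0.0254). These 4 of 9 members were called lower in females, against 5.36% of genes lower and 7.02% called in all of 9604. Ccl22, Fscn1 and Zbtb46 were called in 16 of 16 fits that left out 1 library, and Ccr7 in 13, being lost without replicate 1 or 4 of the delayed group or replicate 8 of the immediate group.

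The member receptors of cDC1 and cDC2 had values of the other sign, none of which passed the test. Clec9a ran from 7.79 to 24.7 CPM (median 9.97) in females and from 0 to 10.4 CPM (median 1.11) in males, a log2 difference of 2.73 ± 0.98 (adjusted p = 0.113 by edgeR). Xcr1 differed by 1.23 ± 0.59 (adjusted p = 0.241) and Cd209a by 1.93 ± 1.25 (adjusted p = 0.405). The 1 receptor gene of the cDC2 list that was called, the lectin gene Clec4a4, was lower in females (-1.44, adjusted p = 0.0336, edgeR), and it was the only call among 7 cDC2 genes tested. Of 9 cDC1 genes tested, Naaa, a lysosomal amidase, was called higher in females (3.64), and Irf8 (-0.47) and the mucin-like surface protein gene Cd24a (-0.65) were called lower, against 7.02% of all genes called and 5.36% lower. The other 6 did not pass and had positive values, from 0.24 to 4.56, and the list median was 1.8 against 0.06 over all genes. DESeq2 called 4 of the 9 cDC1 genes higher and 2 lower, and 1 of the 7 cDC2 genes higher and 2 lower. Over all genes it called 4.1% higher and 7.93% lower.

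**Figure D4:**
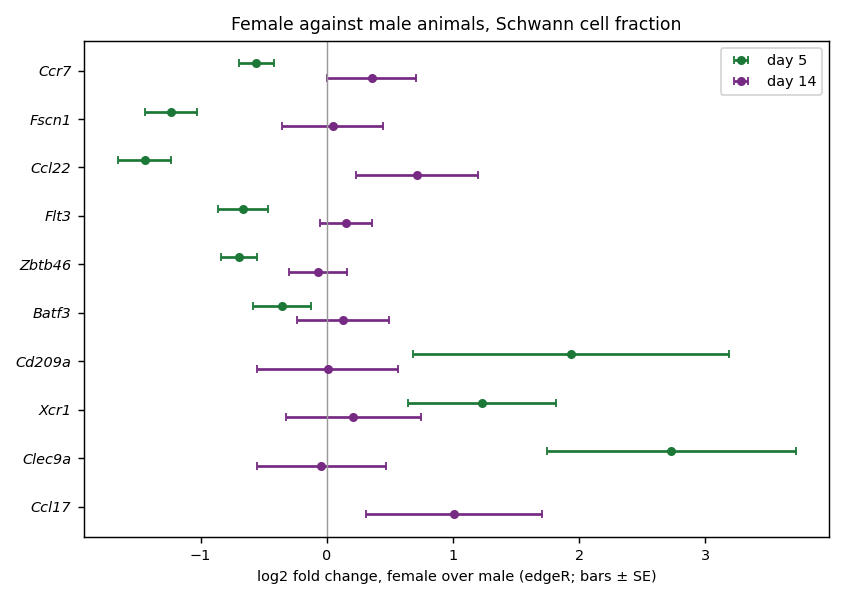
Log2 fold change of each dendritic cell gene between females and males in the Schwann cell libraries at days 5 and 14, from edgeR, with bars for ± SE (Ccl17 was under the minimum level at day 5). At day 5 the values of Ccr7, Fscn1, Ccl22, Flt3, Zbtb46 and Batf3 are negative and those of Cd209a, Xcr1 and Clec9a positive.

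The maturation list followed Ccl22 and Fscn1. Of 22 genes, 16 were lower in females at day 5, against 5.36% of all genes, with a list median of -0.68 against 0.06 over all genes, among them the NF-kappaB subunit Relb (-0.88), the cytokine subunit Ebi3 (-1.47) and the amino acid oxidase Il4i1 (-1.17). Their sum was 14297 to 20919 CPM (median 16196) in females and 22347 to 29739.7 CPM (median 25232) in males, without overlap. The macrophage list summed to 692 to 13619 CPM (median 3753) in females and 297 to 4376 CPM (median 1043) in males, with 0 of 14 genes called and a median of 1.14, and its part in the difference was not tested. With library totals in place of TMM, 3 members and 11 of the 22 maturation genes were called lower and no gene of the cDC1 or cDC2 lists was, the median over all genes moved to 0.26 and the split over all genes went from 159 higher and 515 lower to 351 and 201.

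At day 14 the sexes did not separate, with 0 of 10 members and 4 genes called (0.0391%). The change of the sex difference from day 5 to day 14 was called for 0 of 10 members and 18 genes (0.165%) by edgeR. At an unadjusted p below 0.05 there were 6 members, a threshold unlike that of the 0.165%, so nothing is read from that number. The smallest p was that of Ccl22, whose difference changed by 2.2 ± 0.55 (adjusted p = 0.0605) and which DESeq2 called with adjusted p = 0.00792 among 417 genes. In macrophages at day 5 Xcr1 differed by -0.95 ± 0.22 between females and males (adjusted p = 0.00428, edgeR), 1 of 2 members tested against 25.1% of 8409 genes called and 11.3% lower. The change of that difference by day was 0.86 with adjusted p = 0.111, and 0 of 3 members and 1.52% of genes were called for it. In the stump 0 of 7 members were called by sex (0.0654%, 8 genes, edgeR), and DESeq2 called 90 genes and 0 members. The 1 member at an unadjusted p below 0.05 by edgeR was Ccr7 (1.01), at a looser threshold than that share. Replicates 1 to 4 were the males and 5 to 9 the females in each group, and the labels give no sort date, so sex and any processing order cannot be told apart.

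The last comparison relates the members to the Schwann cell genes over libraries of a day. At day 5 Sox10 ran from 0 to 82.4 CPM (median 10.1) after delayed repair and from 14.7 to 161 CPM (median 72.4) after immediate repair, and S100b ran from 0 to 8.55 CPM (median 0.527) and from 0.592 to 24.7 CPM (median 12.7). At day 14 Sox10 ran from 13.7 to 153 CPM (median 126) and from 42.7 to 199 CPM (median 130.1). The Schwann cell gene Ngfr, a neurotrophin receptor, rose with Sox10 over the 16 day 5 libraries, with Pearson's r of log2(CPM + 1) of 0.94 (adjusted permutation p = 0.0021). It was the highest of the 11 other Schwann cell markers, of which 6 passed the adjustment at day 5 and 0 at day 14, when Ngfr had r = 0.687 (0.203 without the 2 farthest libraries).

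The coefficients of the dendritic genes were not tested against those of the Schwann cell markers. With Sox10 at day 5, r ran from -0.393 (Flt3) to 0.317 (Xcr1), with 5 of 10 negative, and at day 14 from -0.392 to 0.0687, with 9 negative. With S100b, r ran from -0.183 to 0.223 at day 5, with 8 negative, and from -0.680 to -0.113 at day 14, with 10 negative. Of 630 relations computed for the listed genes, 0 of the members' passed Benjamini-Hochberg adjustment. The points share a library, its depth and the total that CPM divides by. Ccr7 and Sox10 gave r = -0.259 (permutation p = 0.330) and rho = -0.25 at day 5, and r = -0.489 without the 2 libraries farthest from the median of Sox10. Within immediate repair r was -0.827 (exact p = 0.0456) and within delayed repair -0.195. It was 0.718 in females (exact p = 0.0475) and -0.672 in males (exact p = 0.0772). These p-values were not adjusted over the splits made, and the difference between the sexes was not tested. Flt3 and Sox10 gave r = -0.393 (permutation p = 0.131) and rho = -0.544 (p = 0.0318, adjusted 0.447), r = -0.526 without the 2 farthest, and -0.569 and -0.724 within delayed and immediate repair.

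**Figure D5:**
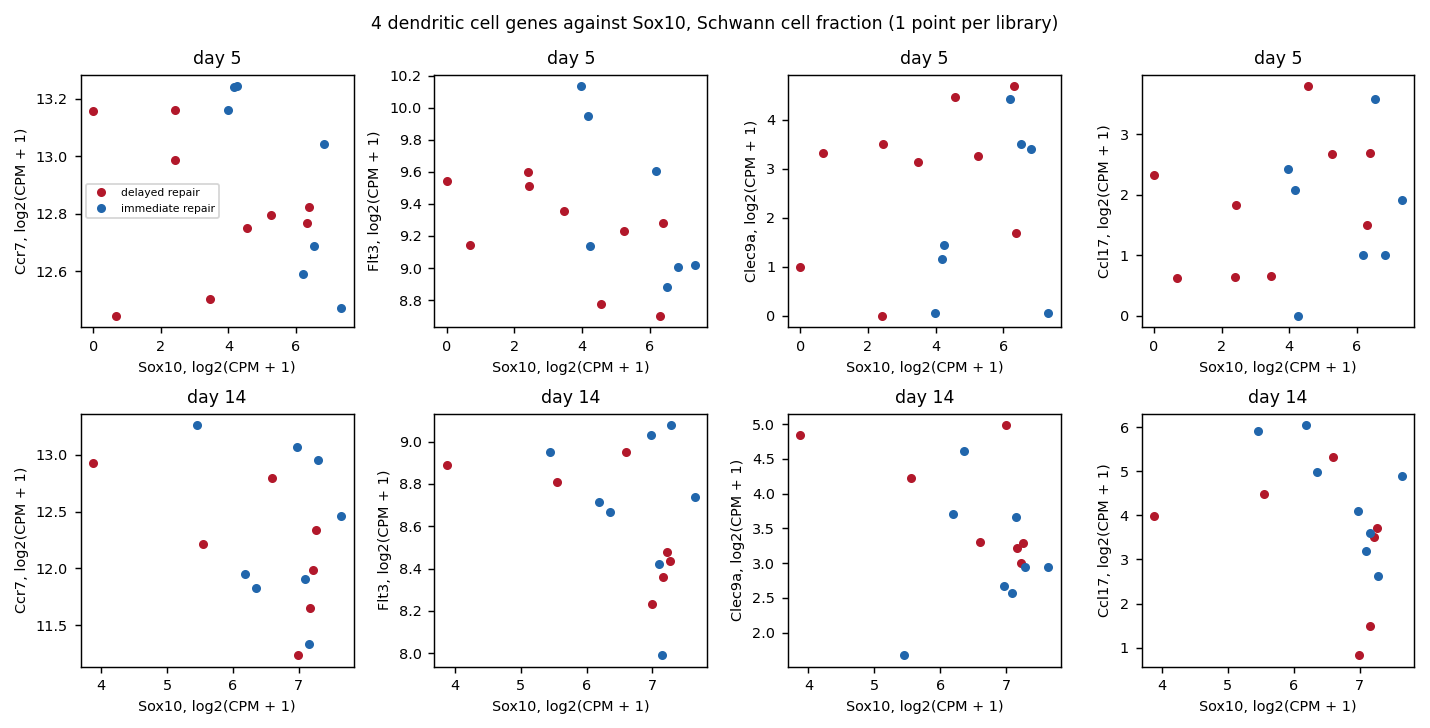
Level of Ccr7, Flt3, Clec9a and Ccl17 against that of Sox10 (both log2(CPM + 1)) in each Schwann cell library at day 5 (upper row) and day 14 (lower row), with 1 point per library coloured by repair group. At day 5 Ccr7 stays within 5574 to 9706 CPM while Sox10 spans 0 to 161 CPM.

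The lowest coefficient was that of Ccl17 with S100b at day 14, r = -0.680 (permutation p = 0.00492, adjusted p = 0.0975) and rho = -0.671. It was -0.588 without the 2 farthest libraries, -0.857 within delayed repair (exact p = 0.00516, n = 7) and -0.336 within immediate repair (exact p = 0.402). By sex it was -0.113 in 7 females (exact p = 0.802) and -0.872 in 8 males (exact p = 0.00504). These exact p-values are also unadjusted, and the splits were not tested against each other. A slope on Sox10 or S100b, fitted by edgeR over all genes with repair as a covariate, was called for 0 members in each of the 4 fits. For Sox10 the fits called 19 of 9603 genes at day 5 (0.198%) and 1 of 10225 at day 14 (0.00978%). At an unadjusted p below 0.05 there were 3 members in both fits. They were Flt3 (slopes -0.18 and -0.23 log2 units per log2 unit of Sox10), Ccr7 (-0.12 and -0.35) and Zbtb46 (-0.13 and -0.21). The shares given are of adjusted calls and cannot be set beside these 3 members, so nothing is read from their number. At day 14 the direction of Ccr7 and Zbtb46 rested on the 2 libraries farthest from the median of Sox10, without which the slopes were 0.0065 and 0.047. DESeq2 called 224 and 490 genes and 0 members. For S100b the fits called 0 genes at both days (0.0%), DESeq2 12 and 49 genes and 0 members.

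Correlations between members are given as a description, over 16 libraries at day 5 and 15 at day 14. Ccr7 and Ccl22 had r = 0.729 at day 5 and 0.776 at day 14, Flt3 and Zbtb46 0.838 and 0.573, and Fscn1 and Ccl22 0.806 and 0.516. Among the receptor genes of cDC1 and cDC2, Clec9a and Cd209a had r = 0.920 and 0.530 and Clec9a and Xcr1 0.694 and 0.339. Values were negative, at -0.897 and -0.339 for Clec9a and Fscn1 and -0.825 and -0.466 for Clec9a and Ccl22. The day 5 values pool 8 females and 8 males, which stood apart in these genes (Clec9a at 14.0 and 2.08 CPM, Fscn1 at 2087 and 4511, Ccl22 at 739 and 1728). Within females and males at day 5, r was -0.375 and -0.818 for Clec9a and Fscn1, -0.428 and -0.412 for Clec9a and Ccl22, and 0.634 and 0.334 for Fscn1 and Ccl22, all nearer to 0 than the pooled values. It was 0.506 and 0.522 for Ccr7 and Ccl22, 0.706 and 0.818 for Flt3 and Zbtb46, 0.812 and 0.893 for Clec9a and Cd209a and 0.420 and 0.451 for Clec9a and Xcr1. The neighbouring chemokine genes Ccl22 and Ccl17, whose upstream sequences are given above, had r = 0.0854 at day 5 and 0.721 at day 14, and Ccl17 had day 5 values between -0.212 (Zbtb46) and 0.426 (Xcr1) with the other members.

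Over all 31 Schwann cell libraries, the gene of the most similar pattern among 10913 was Tmem123 for Ccr7 (r = 0.911), Relb for Flt3 (0.909), Ccser2 for Zbtb46 (0.887), Socs2 for Batf3 (0.875) and Naaa for both Clec9a (0.895) and Cd209a (0.870). It was Foxp4 for Fscn1 (0.925), Il4i1 for Ccl22 (0.852), Fasn for Xcr1 (0.776) and Derl2 for Ccl17 (0.776). Of these genes Relb, Il4i1 and Socs2 are in the maturation list and Naaa in the cDC1 list. Of 12 ligands and partner receptors, 3 had a mean of at least 5 CPM in these libraries. Ccl19 was at 0 in 18 of 31 libraries and Ccl21a in 30, and Ccr4, the receptor for CCL17 and CCL22, reached at most 0.216 CPM, whereas Xcl1, the ligand of XCR1, stood at 12.1 ± 16.4 CPM at day 5 and 19.9 ± 13.7 CPM at day 14 and Csf2rb, a shared receptor subunit for granulocyte-macrophage colony-stimulating factor, stood at 651 ± 159 CPM at day 5.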

How the data were processed

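The deposited files hold estimated counts per gene for each library, 1 table each for Schwann cells, macrophages and the distal stump. Per the labels and the study's methods, the authors trimmed reads with cutadapt 1.8 and aligned them to mm10 with TopHat2 2.1.1, and Cufflinks 2.2.1 is named for normalization. The methods give a first-strand library type for alignment and, where appropriate, for Cufflinks, without naming the libraries, and the program that wrote the count tables is not given in the sources used here. About 1% of values were not whole (1.18% in the stump, 0.952% in macrophages, 0.951% in Schwann cells), and all were rounded.

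Libraries were grouped by the labels' repair, day and cell type, and sex came from the labels. No 2 of the 3081 pairs of libraries held identical values, and all columns were mapped. Each comparison was fitted across all genes with edgeR 4.0.16 (quasi-likelihood, TMM scaling, R 4.3.3) on genes that reached 5 CPM in 6 or more libraries of the comparison, with Benjamini-Hochberg adjustment over all of them and a threshold of 0.05. The SE of a log2 difference is its size divided by the square root of F. Members under the minimum were tested alone with an exact permutation test of log2(CPM + 1). Relations to Sox10 and S100b used log2(CPM + 1) and 100000 permutations (exact within repair groups and sexes), adjusted over 630 relations. Day contrasts and their interaction came from 1 fit of all 4 groups of a cell type. CPM divides by the library total, so precision follows depth, and p-values measure the spread between animals.

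Gene positions and exonic lengths came from GENCODE vM21 (GRCm38) and promoter windows from RefSeq (GRCm38.p6). The scripts were tested on simulated data. Alternatives were DESeq2 1.42.0, library totals, another filter or none, sex or the replicate number in the fit, other sets of groups, a pseudocount of 0.1 and each library left out. The genes named are the 10 members, Sox10 and S100b, up to 3 genes of each other list in a comparison by smallest p, or else by highest level, and the most similar gene of each member. Ccl19, Ccl21a, Ccr4, Ngfr, Siglech and Cd207 were named outside this rule, after their values had been seen. The members, the gene lists and this rule were chosen with earlier results of these data known. A few marker genes are not reported here.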

Additional observations from a re-analysis of the deposited data

Results flagged for a closer look

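In 98 groups of 4 to 10 libraries, a library far from the rest was sought, with Dixon's 95% critical value for the gap. Chance passes that value in about 1 in 20 groups where values are normally distributed. CPM is skewed and often at 0, so that rate does not hold here and no excess is read from the number found. There were 19 such libraries, 4 in Schwann cells, 12 in macrophages and 3 in the stump, each the highest of its group. In Schwann cells they were Clec9a at 23.5 CPM (day 14, immediate repair, replicate 8), Ccl17 at 12.9 CPM (day 5, delayed, replicate 8), Cd209a at 179 CPM (day 5, immediate, replicate 8) and Ccl17 at 10.97 CPM (day 5, immediate, replicate 5). In macrophages at day 14 after delayed repair they were Ccr7 at 46.2 and Ccl17 at 8.80 CPM in replicate 7 and Flt3 at 0.777, Cd209a at 3.88 and Ccl22 at 19.4 CPM in replicate 8. After immediate repair at day 14 they were Flt3 at 1.67 and Ccl22 at 34.9 CPM, both in replicate 7. At day 5 they were Fscn1 at 10.2 and Ccl22 at 42.3 CPM in replicate 7 after delayed repair, and Clec9a at 1.75 CPM in replicate 6, Fscn1 at 5.99 CPM in replicate 8 and Ccl17 at 0.112 CPM in replicate 7 after immediate repair. In the stump they were Xcr1 at 13.1 CPM (delayed, replicate 6) and at 10.3 CPM (immediate, replicate 1) and Ccl17 at 0.133 CPM (immediate, replicate 2).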

How the results depend on the processing

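Counts of members called stayed within 1.5 times of the value given in 103 of 116 alternatives other than leaving out a library, and in 125 of 157 with a library left out. Most comparisons called 0 members and a count that stays at 0 is included, so these totals do not show how firm the called results are. The exceptions for the stump were 0 members with library totals, 1 with edgeR's own filter, 0 with no filter, 1 with sex in the fit, and 0 to 3 with a library left out, against 3. For day 14 against day 5 in Schwann cells after immediate repair they were 2 with no filter, 1 from those 2 groups alone, and 0 to 4 with a library left out, against 4. After delayed repair they were 2 with DESeq2, library totals, sex in the fit or those 2 groups alone, and 0 to 3 with a library left out, against 1. For macrophages after delayed repair 1 member was called with no filter, and DESeq2 called 1 for the change of the sex difference in Schwann cells. The cause of these changes was not tested.

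Among single members, 844 of 901 values kept direction and side of the threshold, 28 changed sign, 22 lost and 7 gained a call, and none of the sign changes was in a called value. With sex in the fit, delayed over immediate repair at day 5 in Schwann cells gave Cd209a 0.298 and Ccl22 0.0493, and the interaction of repair and day gave Batf3 -0.015. With library totals, Xcr1 in macrophages at day 5 was 0.0492, Ccl22 by day after immediate repair 0.067 (0.0194 with sex), the interaction 0.0388 for Cd209a in Schwann cells and -0.014 for Xcr1 in macrophages (-0.0201 with sex), and Fscn1 by sex at day 14 -0.00161. Ccl22 by day in macrophages after delayed repair was 1.81 with DESeq2 and 0.479 with sex, and its interaction 0.754 with DESeq2. Slopes turned to -0.146 for Cd209a on Sox10 at day 5 with repair and sex, to 0.0065 for Ccr7 and 0.047 for Zbtb46 at day 14 without the 2 farthest libraries, and on S100b at day 5 to 0.0357 (Batf3), -0.0493 (Clec9a), 0.0243 (Xcr1) and 0.0965 (Fscn1) without repair in the fit and to -0.0922 (Clec9a) and -0.299 (Cd209a) with repair and sex. With TMM-scaled CPM, r with Sox10 was -0.00863 for Batf3 at day 5 and -0.0029 for Fscn1 at day 14.

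Leaving out a library turned delayed over immediate repair within these ranges: at day 5 in Schwann cells Ccl22 -0.32 to 0.084, Cd209a -0.41 to 1.46 and Xcr1 -0.60 to 0.0015, and at day 14 Ccl22 -0.73 to 0.023, Cd209a -0.38 to 0.13, Fscn1 -0.11 to 0.26 and Zbtb46 -0.04 to 0.25. In macrophages Ccr7 ran from -0.53 to 0.11 and -0.60 to 0.87 and Xcr1 from -0.14 to 0.14 and -0.077 to 0.12 at days 5 and 14, and Ccl22 by day after immediate repair in Schwann cells from -0.55 to 0.10.

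Replicate numbers are shared between repair groups, but no label says that they pair animals, so they were not taken as pairs. Same-numbered libraries are of the same sex. They deviated together (r over 0.1) in 3 of 7, 2 of 7, 7 of 8, 6 of 7 and 1 of 7 pairs in Schwann cells at days 5 and 14, macrophages at days 5 and 14 and the stump. In macrophages r reached 0.481 at day 5 and 0.475 at day 14. The main fits do not allow for this, and its source was not tested. With the replicate number as a block, 1 member was called in the stump and 0 in the 4 other repair comparisons. By day 3 and 1 were called in Schwann cells after immediate and delayed repair and 0 in macrophages. Of all genes 8.37% were then called higher and 9.66% lower in the stump, and 1.97% and 4.61% by day in Schwann cells after immediate repair. The block gave Cd209a 0.0468 and 0.0381 in Schwann cells at days 5 and 14, Ccr7 -0.281 in macrophages at day 14 and Ccl22 by day 1.42 in macrophages after delayed repair.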

Other observations

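Genes of plasmacytoid dendritic cells, the type that secretes interferon, were present in the Schwann cell libraries and, as a list, in the other samples. The 10 genes summed to medians of 403 to 795 CPM in the 4 groups of Schwann cell libraries, 271 to 346 CPM in those of macrophages and 385 and 554 CPM in the stump, which was prepared in another way. In the Schwann cell libraries Siglech, a surface lectin of these cells, ran from 0.0430 to 315 CPM (median 93.1) at day 5 and from 0.863 to 278 CPM (median 46.0) at day 14, and Bst2 from 57.4 to 230.3 CPM (median 122) and from 63.4 to 182 CPM (median 93.7). In macrophages Siglech reached at most 0.619 CPM, whereas Bst2 had medians of 138 and 161 CPM. Spib, a transcription factor of this type and of B cells, ran from 110.5 to 343 CPM (median 194) at day 5 and from 11.1 to 119 CPM (median 78.8) at day 14. Between days 1 of the 10 genes was called by edgeR, a share near that over all genes (7.28% after immediate and 6.73% after delayed repair). It was Spib in both repair groups, which fell by 1.44 and 1.63 on the log2 scale, and the list medians were -1.24 and -1.13. The Langerhans cell gene Cd207 was at 0 in 25 of 31 Schwann cell libraries.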
